A study of Mus musculus with 6 samples.

Results

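The mitochondrial genome carries its own small set of protein genes, and 10 of them were followed across mouse bone marrow cells with and without Txnip: mt-Nd1, mt-Nd2, mt-Nd4, mt-Nd5, mt-Co1, mt-Co2, mt-Co3, mt-Cytb, mt-Atp6 and mt-Atp8. They were found by symbol among 31253 listed features. The other 3 mitochondrially encoded protein genes (mt-Nd3, mt-Nd4l and mt-Nd6) were kept for comparison. In each library the 10 genes held 97.9% to 98.2% of the UMIs (unique molecular identifiers, 1 per captured molecule) from all 13.

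The tested cells were 3 libraries labelled Txnip knock-out (Txnip-KO), set against 3 libraries labelled wildtype (WT). All 6 held bone marrow that was flushed, enriched and sorted by flow cytometry, and were made with a droplet kit that reads the 3' end of polyadenylated RNA. The labels do not name the sorted population, the deleted part of Txnip, the strain, the age or the sex, and do not state whether a library is 1 animal. The p-values below therefore measure the spread between libraries, which may be technical. Txnip, which encodes a thioredoxin-binding arrestin-like protein known for limiting glucose uptake, was at 10.9, 9.71 and 0.452 CPM (counts scaled to a common library total) in the Txnip-KO libraries, against 304, 207 and 269 CPM in the WT libraries.

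Mitochondrial DNA is copied into long RNAs that start near 1 control region and are cut into single transcripts, mostly at the tRNAs that lie between the genes. The nuclear genome supplies the RNA polymerase, the processing enzymes, the ribosomal proteins and most subunits of the respiratory chain. Blood stem cells are known for relying little on respiration and for damping it in the resting state, while many of their progeny rely on it more. In single-cell work a high mitochondrial share of UMIs is also widely used to discard damaged cells, so the changes by gene and type and the shares of UMIs are given without such a filter and then with cells over 10% left out.

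In total 43478 cells were kept, 6347, 8172 and 7945 in Txnip-KO and 6496, 7318 and 7200 in WT, with 396345000 UMIs. Of these, 1887 cells (4.34%) exceeded 10%. A cell was assigned to a type when at least 3 of 6 marker genes of that type had a UMI and it led every other type by at least 2 markers. This placed 61.8% of the cells. The 12 types with at least 20 cells in every library were compared, while 4 were too rare. In the 10 genes that lead each gate, 2 to 6 were that type's own markers, and the B lineage gate alone held a marker of another type (Iglc2). Median UMIs per cell were 7860.0, 7671 and 6782 in Txnip-KO, against 8562, 8886 and 8527 in WT, so depth per cell moves with genotype. The share of cell barcodes seen in more than 1 library was 0.420%.

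All 10 genes lie on the plus strand of chromosome M, from mt-Nd1 at positions 2751 to 3707 to mt-Cytb at 14145 to 15288 (GRCm38, GENCODE M21). mt-Atp8 (7766 to 7969) and mt-Atp6 (7927 to 8607) overlap by 43 bases, mt-Atp6 and mt-Co3 by 1 base, and mt-Nd4 shares 7 bases with mt-Nd4l. mt-Nd5 overlaps mt-Nd6 by 14 bases on the opposite strand. The whole mt-Atp8 gene (chrM:7766-7969) is shown because reads in its shared end cannot be assigned to 1 gene, and the bases shared with mt-Atp6 are in capitals. The last 100 bases of mt-Co1 (chrM:6773-6872) and of mt-Nd2 (chrM:4852-4951) follow with every G in capitals, because these 2 genes moved in opposite directions and differ in their G content. All 3 are on the plus strand, read 5′ to 3′ from GENCODE M21 transcripts.
mt-Atp8: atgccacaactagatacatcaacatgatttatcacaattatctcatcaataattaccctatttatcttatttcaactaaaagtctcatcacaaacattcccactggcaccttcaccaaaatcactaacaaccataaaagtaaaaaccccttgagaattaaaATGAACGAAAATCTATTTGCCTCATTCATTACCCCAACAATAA
mt-Co1 end: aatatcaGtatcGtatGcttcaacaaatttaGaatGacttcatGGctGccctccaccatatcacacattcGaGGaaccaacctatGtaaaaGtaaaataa
mt-Nd2 end: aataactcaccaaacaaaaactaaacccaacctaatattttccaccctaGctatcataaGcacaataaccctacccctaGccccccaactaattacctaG

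The stretch of mt-Co1 holds 13 G and that of mt-Nd2 holds 4 G. Several of these genes have nuclear pseudogene copies that the feature list does not hold. Gm10925 on chromosome 1 matches mt-Atp6 at 100% identity over 99.6% of its length, and Gm28661 and Gm28437 match mt-Co2 and mt-Co3 at 100% identity over 99.6% and 99.9%. For mt-Co1, Gm29216 on chromosome 1 matches the last 31.3% of the gene, the end this kit reads, at 99.8% identity, and Gm13340 on chromosome 2 matches the whole gene at 97.6%. Gm28439 matches the first 63.6% of mt-Nd4 at 100%. For mt-Nd2, Gm13339 on chromosome 2 matches the last 49.1% of the gene, also the end this kit reads, at 96.7%. The closest copies of mt-Nd5 (Gm4076) and mt-Cytb (Gm11410) match at 95.2% over 52.3% and at 92.9% over 99.8%. How many reads of mt-Nd2, mt-Nd5 and mt-Cytb could come from these less alike copies was not tested. Counts of mt-Atp6, mt-Co2 and mt-Co3 cannot be told apart from transcripts of their copies, and those of mt-Co1 and mt-Nd4 only in part. No annotated copy of at least 90% identity was found for mt-Nd1 or mt-Atp8.

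Over all kept cells the 10 genes did not move together in Txnip-KO. mt-Co1, a catalytic subunit of cytochrome c oxidase (complex IV), rose, while mt-Atp8 (a subunit of ATP synthase, complex V) and mt-Nd2 and mt-Nd4 (membrane subunits of NADH dehydrogenase, complex I) fell. This is 4 of 10 genes called at an adjusted p of 0.05 (edgeR's quasi-likelihood test with Benjamini-Hochberg adjustment), 1 higher and 3 lower, where 40.8% of all 14689 genes tested were called, 21.6% higher and 19.2% lower. The count is near that background. DESeq2's Wald test called 7 of 10, 1 higher and 6 lower, beside 40.7% of all genes (19.2% higher, 21.5% lower), and the edgeR fit over every deposited barcode also 1 higher and 6 lower, beside 40.6% (19.8% higher, 20.8% lower). Their median log2 fold change was -0.15, beside 0.03 over all genes, and their range was -0.54 to 0.51.

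Among the complex IV genes, mt-Co1 was at 5860.2, 6345 and 6105 CPM in Txnip-KO, against 4462, 4054 and 4351 CPM in WT. Every Txnip-KO library lay above every WT library. The means were 6103 ± 242 CPM in Txnip-KO and 4289 ± 211 CPM in WT (SD, n = 3 each), a 1.42-fold difference. The log2 fold change was 0.51 (SE 0.066, edgeR adjusted p = 0.00171). mt-Co3, another core subunit, was at 8044, 8042 and 8402 CPM in Txnip-KO, against 7504, 7023 and 7329 CPM in WT. These groups did not overlap, but the log2 fold change of 0.16 missed the threshold (edgeR adjusted p = 0.0553). mt-Co2, which takes electrons from cytochrome c, overlapped between groups, at 6117, 6468 and 6546 CPM in Txnip-KO and 6315, 6113 and 6416 CPM in WT.

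Of the complex V genes, mt-Atp8 was at 92.3, 98.2 and 82.8 CPM in Txnip-KO, against 137, 128 and 133 CPM in WT. All Txnip-KO libraries were below all WT libraries. The log2 fold change was -0.54 (SE 0.078, edgeR adjusted p = 0.00218), with means of 91.1 ± 7.78 CPM in Txnip-KO and 133 ± 4.42 CPM in WT (SD, n = 3 each). mt-Atp6, the subunit that forms the proton path of the enzyme and lies on the same transcript, was at 8621, 8969 and 8949 CPM in Txnip-KO and 9439.5, 9528 and 10001 CPM in WT. Its groups did not overlap, and its log2 fold change of -0.13 was not called (edgeR adjusted p = 0.113). mt-Atp8 lies before mt-Atp6 on this transcript and the kit reads the 3' end. Counts of mt-Atp8 therefore do not measure a transcript of its own. Where its reads come from was not tested.

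The complex I genes split. mt-Nd2 was at 1385, 1398 and 1302 CPM in Txnip-KO, against 1859, 1806 and 1749 CPM in WT. Its groups stood apart, with a log2 fold change of -0.41 (SE 0.064, edgeR adjusted p = 0.00288). mt-Nd4 was at 2251, 2255 and 2101 CPM in Txnip-KO, against 2598, 2677 and 2589.6 CPM in WT. It fell by 0.25 on the log2 scale (SE 0.062, edgeR adjusted p = 0.0139), and the call of mt-Nd4 in all kept cells was lost without WT replicate 2 (edgeR adjusted p = 0.0711). mt-Nd5, another membrane subunit, was at 494, 526 and 459 CPM in Txnip-KO and 602, 569 and 532 CPM in WT, apart but not called (log2 -0.20, edgeR adjusted p = 0.0721). mt-Nd1, the subunit near the quinone site, overlapped between groups at 1632, 1592 and 1327 CPM in Txnip-KO and 1509.9, 1381 and 1309 CPM in WT. The only complex III gene, mt-Cytb (cytochrome b), was at 3603, 3852 and 3685 CPM in Txnip-KO and 4074, 4149.8 and 4299 CPM in WT. It was apart, with a log2 fold change of -0.17 that missed the threshold (edgeR adjusted p = 0.0554).

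**Figure D1:**
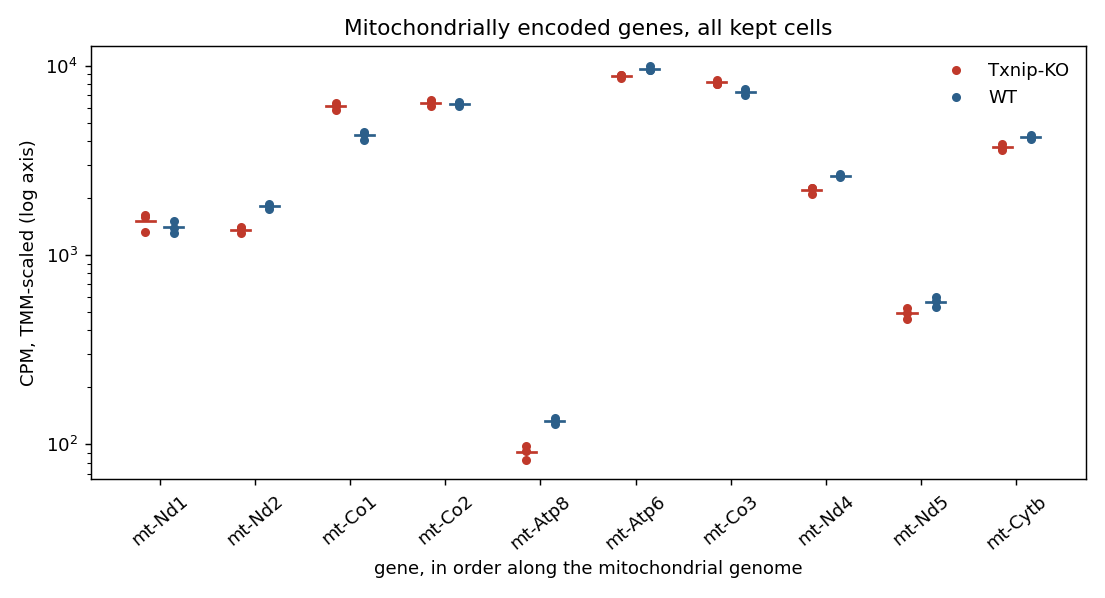
CPM (TMM-scaled, log axis) of each gene in the 3 Txnip-KO libraries (red, left) and 3 WT libraries (blue, right) over all kept cells, in genome order; points are libraries and bars are means. The Txnip-KO points of mt-Co1 lie above those of WT, those of mt-Nd2, mt-Atp8 and mt-Nd4 lie below, and those of mt-Co2 and mt-Nd1 overlap with WT.

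With cells over 10% left out, the same 4 genes were called in the same directions and mt-Co3 joined them (log2 0.17, edgeR adjusted p = 0.0468), which gives 5 of 10 beside 41.1% of all genes (21.7% higher and 19.4% lower). The log2 fold change of mt-Co1 was then 0.52 and that of mt-Atp8 -0.55. None of mt-Nd3, mt-Nd4l and mt-Nd6 was called by edgeR or by DESeq2's Wald test, at log2 fold changes of 0.19, -0.13 and -0.08, and 0 of the 3 had an unadjusted p under 0.05. Where the same number of cells of each type was drawn in every library, mt-Co1 kept a log2 fold change of 0.51, and mt-Nd2 was at -0.42.

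Per kilobase of gene, the order of the levels also changed. The kit reads the 3' end, so division by length sets this order in part. In both groups mt-Atp6 was highest and mt-Nd5 lowest. mt-Co1 was at 3793, 4107 and 3951 CPM per kilobase in Txnip-KO, above mt-Cytb at 3149.9, 3368 and 3221. In WT mt-Co1 was at 2888, 2624 and 2816 CPM per kilobase, below mt-Cytb at 3561, 3627 and 3758. In CPM not divided by length mt-Co1 had the higher mean in both groups, 6103 against 3714 in Txnip-KO and 4289 against 4174 in WT, so this exchange depends on the division. A second pair also traded places. mt-Nd1 was above mt-Nd2 in Txnip-KO (1705, 1664 and 1386 against 1334, 1347 and 1255 CPM per kilobase) and below it in WT (1578, 1443 and 1368 against 1791, 1740.2 and 1685). mt-Co2 and mt-Co3 did not differ beyond their spread in WT, at 9183 and 9292 CPM per kilobase on average.

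Seen as parts of their own sum, the 10 genes changed their mixture. mt-Co1 supplied 15.4%, 16.0% and 15.7% of their UMIs in Txnip-KO, against 11.6%, 10.8% and 11.2% in WT. mt-Nd2 supplied 3.63%, 3.54% and 3.34% in Txnip-KO and 4.83%, 4.83% and 4.52% in WT. mt-Atp8 supplied 0.234% ± 0.0192 in Txnip-KO and 0.348% ± 0.00735 in WT (SD, n = 3 each). The shares of mt-Atp6, mt-Nd4, mt-Nd5 and mt-Cytb were also lower in every Txnip-KO library and that of mt-Co3 higher, while mt-Nd1 and mt-Co2 overlapped. Each of these 8 separations has an exact two-sided permutation p of 0.1, the smallest that 3 against 3 allows, and 0.125 after adjustment over the 10 genes. Since the shares sum to a fixed total, they cannot move independently.

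In cells over 10% the shares of mt-Co1 and mt-Co3 were also higher, and those of mt-Nd2, mt-Nd4, mt-Atp6, mt-Atp8 and mt-Cytb lower, in every Txnip-KO library. mt-Co1 supplied 13.4%, 13.9% and 13.8% there in Txnip-KO, against 10.2%, 9.57% and 10.1% in WT. These cells had median UMIs of 2157 to 2354 in Txnip-KO and 2224 to 2375 in WT, and the remaining cells 6943 to 8202 in Txnip-KO and 8935 to 9204 in WT.

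The ratio of mt-Co1 to mt-Nd2 UMIs needs no scaling between libraries. The pair was chosen after their values were seen, so its separation, over all cells and by type, restates the changes of these genes and is a description. The types are parts of the same libraries and are not independent of each other. Over all cells the ratio was 4.23, 4.54 and 4.69 in Txnip-KO, against 2.40, 2.24 and 2.49 in WT, and thus 1.89 times higher on average. The groups stood apart in 11 of 12 cell types, with the ratio of means between 1.59 in plasmacytoid dendritic-gated and 2.19 in megakaryocyte-gated cells. The exception was the neutrophil gate, where the ratio was 13.2, 10.9 and 6.98 in Txnip-KO and 7.11, 11.4 and 7.17 in WT. In stem cell-gated cells it was 5.37, 5.32 and 5.57 in Txnip-KO, against 2.72, 2.75 and 2.85 in WT.

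**Figure D2:**
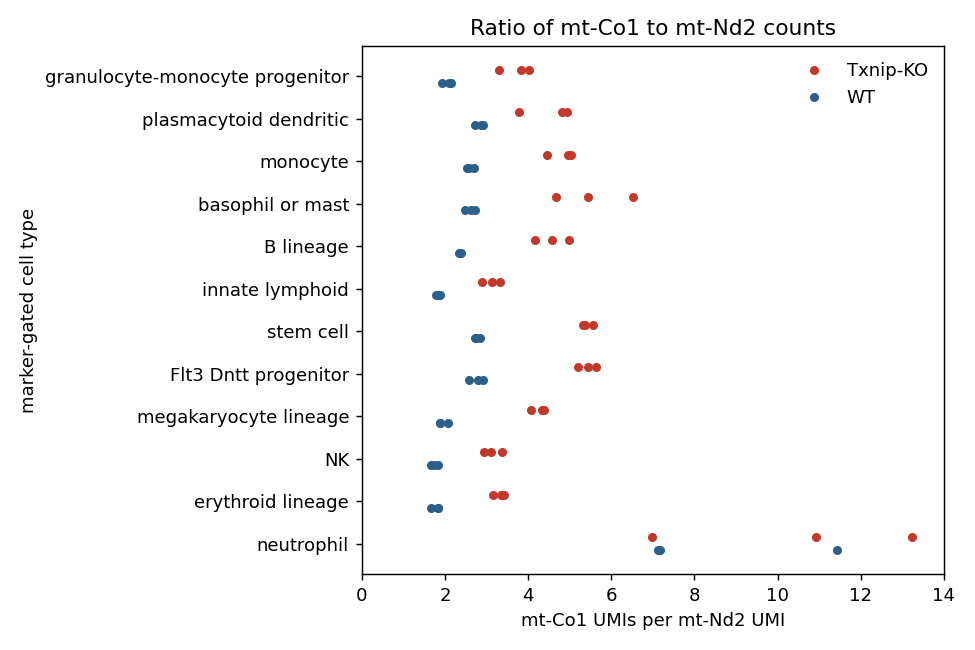
mt-Co1 UMIs per mt-Nd2 UMI (horizontal axis) in each marker-gated cell type, 1 point per library, Txnip-KO in red above WT in blue. The groups separate in every type but the neutrophil gate, where Txnip-KO spans 6.98 to 13.2 and WT 7.11 to 11.4.

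By cell type, 119 pairs of a gene and a type could be tested, as mt-Atp8 was too low in the neutrophil gate. Of these, 52 were called, 26 higher and 26 lower in Txnip-KO, beside 21.4% of all gene-by-type pairs. mt-Co1 was higher in 11 of 12 types. mt-Atp8 was lower in 8 of 11 and mt-Nd2 in 6 of 12, and neither had a positive log2 fold change in any type. mt-Co3 was called higher in 6 types, mt-Co2 in 4 and mt-Nd1 in 3, with no lower call. mt-Nd4 was called lower in 4 types and mt-Nd5 in 2, with no higher call. Calls went in both directions for mt-Cytb (1 higher, 4 lower) and mt-Atp6 (1 higher, 2 lower). Of the 52 calls, 28 held when any 1 library was left out. Without WT replicate 2 the count was 32, and the genes called over all cells fell from 5988 to 3513.

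The log2 fold change of mt-Co1 was largest in megakaryocyte-gated cells at 0.80 (5074, 5073 and 4933 CPM in Txnip-KO, against 3067, 2759.8 and 2832 CPM in WT). It was 0.78 in basophil or mast-gated, 0.76 in erythroid-gated, 0.75 in B lineage-gated and 0.73 in granulocyte-monocyte progenitor-gated cells. In stem cell-gated cells it was 0.58, with 6788, 7389 and 7327 CPM in Txnip-KO and 4948, 4509.8 and 4973 CPM in WT. The smallest called values were 0.35 in monocyte-gated, 0.32 in innate lymphoid-gated and 0.27 in NK-gated cells. Those 3 calls were the ones of mt-Co1 that did not hold when each library was left out in turn. The call of mt-Co1 in innate lymphoid gated cells was lost in all 6 such fits (edgeR adjusted p from 0.0551 to 0.252).

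mt-Atp8 ranged from a log2 fold change of -0.73 in B lineage-gated to -0.18 in granulocyte-monocyte progenitor-gated cells. In monocyte-gated cells it was at 64.1, 81.6 and 66.0 CPM in Txnip-KO, against 113, 108 and 116 CPM in WT. mt-Nd2 ranged from -0.57 in NK-gated to -0.02 in plasmacytoid dendritic-gated cells. In NK-gated cells it was at 1438, 1415 and 1228 CPM in Txnip-KO, against 2064, 2010.3 and 1967 CPM in WT. In both of these examples every Txnip-KO library was below every WT library.

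**Figure D3:**
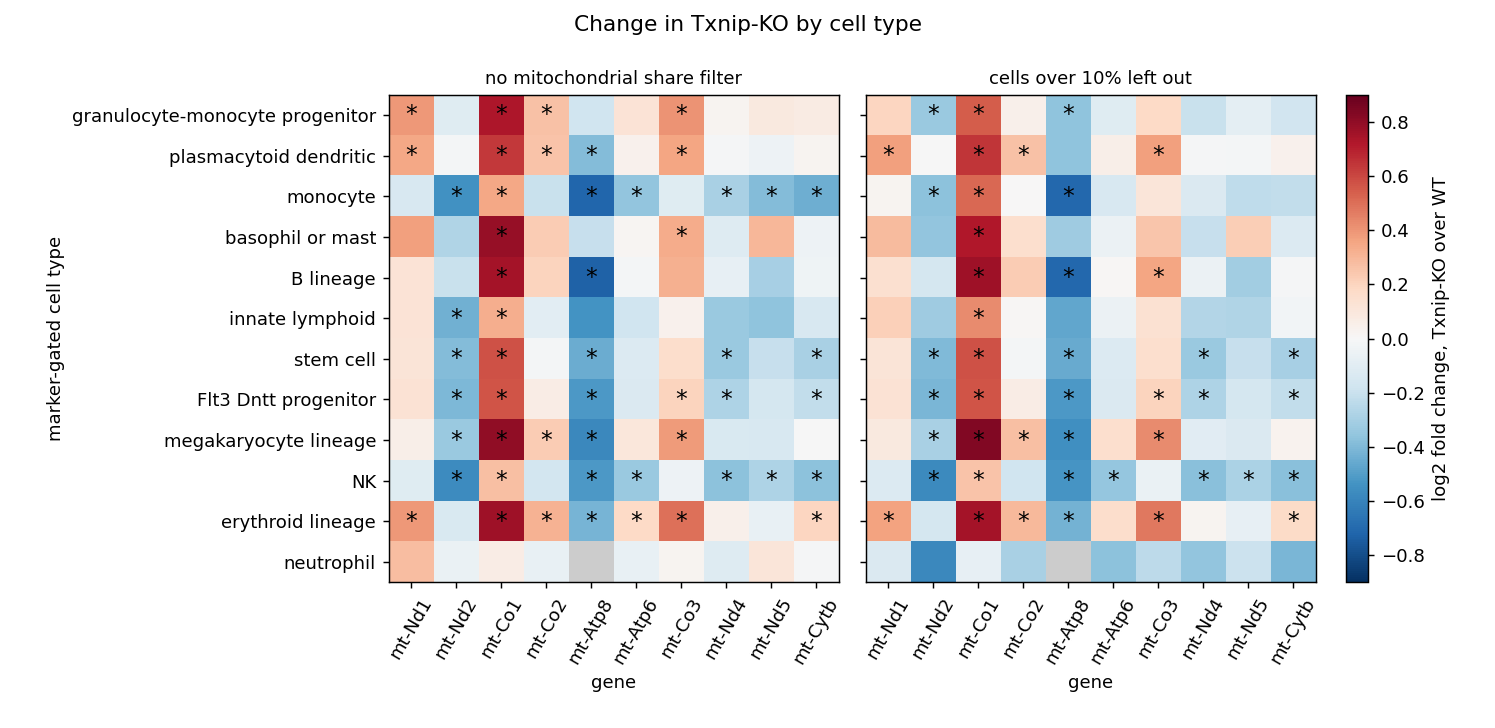
Log2 fold change (Txnip-KO over WT, colour) of each gene (columns, genome order) in each cell type (rows, ordered by the WT share of these genes), without the mitochondrial share filter on the left and with cells over 10% left out on the right. A star marks an edgeR adjusted p under 0.05 and grey a gene not tested; the mt-Co1 column is positive in all 12 types on the left, and the stars in the monocyte and granulocyte-monocyte progenitor rows differ between the panels.

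The balance of calls differed between cell types. In erythroid-gated cells 6 genes rose and 1 fell, beside 27.8% of all genes called in that gate (13.3% higher, 14.5% lower). mt-Co3 was at 7553, 7476 and 8505 CPM in Txnip-KO, against 5911, 5395 and 5363 CPM in WT, a log2 fold change of 0.50. The 1 fall was mt-Atp8 (log2 -0.42), and mt-Cytb, which fell in 4 other types, rose there (log2 0.20, edgeR adjusted p = 0.0241), a call lost without Txnip-KO replicate 2 or any 1 of the WT libraries. The rise of mt-Atp6 there was lost in 5 of the 6 fits that leave out 1 library, all but the one without Txnip-KO replicate 1. In NK-gated cells 1 gene rose and 6 fell, beside 28.2% of all genes (13.5% higher, 14.7% lower). mt-Cytb was at 2575, 2608 and 2377 CPM in Txnip-KO, against 3217, 3147 and 3386 CPM in WT (log2 -0.37). With 1 library left out the calls of mt-Co1 and mt-Nd5 in this gate were lost in 4 and 3 of 6 fits.

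Stem cell-gated cells had 1 rise (mt-Co1) and 4 falls (mt-Nd2, mt-Atp8, mt-Nd4 and mt-Cytb), beside 16.4% of all genes (7.74% higher, 8.68% lower). Those of mt-Co1 and mt-Nd2 held with any 1 library left out, while that of mt-Cytb was lost in 4 of 6 fits, mt-Atp8 without WT replicate 1 and mt-Nd4 without WT replicate 2. Flt3 Dntt progenitor-gated cells had 2 rises (mt-Co1 and mt-Co3) and the same 4 falls, beside 44.7% (21.6% higher, 23.1% lower), with mt-Co3 lost in 3 of 6 and mt-Cytb in 2 of 6 such fits. In megakaryocyte-gated cells mt-Co1, mt-Co2 and mt-Co3 rose and mt-Nd2 and mt-Atp8 fell, beside 11.8% (5.07% higher, 6.73% lower). The call of mt-Co2 was lost in 5 of 6 fits with 1 library left out, that of mt-Atp8 in 4 and that of mt-Nd2 in 3.

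Plasmacytoid dendritic-gated cells had 4 rises (mt-Nd1, mt-Co1, mt-Co2 and mt-Co3) and 1 fall (mt-Atp8), beside 19.8% of all genes (9.92% in either direction). B lineage-gated cells had 1 rise (mt-Co1) and 1 fall (mt-Atp8), beside 13% (5.74% higher, 7.26% lower). Basophil or mast-gated cells had 2 rises (mt-Co1 and mt-Co3), beside 11.3% (5.66% higher, 5.59% lower). Innate lymphoid-gated cells had 1 rise (mt-Co1) and 1 fall (mt-Nd2), beside 1.13% (0.53% higher, 0.597% lower). The fall of mt-Atp8 in plasmacytoid dendritic-gated cells was lost whichever library was left out, and the rise of mt-Nd1 there in 4 of 6 fits. In the same fits mt-Co3 in basophil or mast-gated cells was lost in 4, and mt-Atp8 in B lineage-gated and mt-Nd2 in innate lymphoid-gated cells in 3 each.

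No gene was called in the neutrophil gate, where 4.41% of all genes were (2.72% higher, 1.69% lower). That gate held 269, 25 and 110 cells in Txnip-KO and 29, 41 and 28 cells in WT, and 0 of 9 genes had an unadjusted p under 0.05 by edgeR or an adjusted one by DESeq2. mt-Co1 there was at 4898, 4439.7 and 6985 CPM in Txnip-KO and 5444, 5572 and 4616 CPM in WT, and the groups overlapped.

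The filter at 10% changed the calls mainly in 2 types. It removes cells by the UMI share of the mitochondrially encoded genes themselves, so values with it are in part set by the filter. In granulocyte-monocyte progenitor-gated cells without it, 4 genes rose (mt-Nd1, mt-Co1, mt-Co2 and mt-Co3) and 0 fell, beside 29.9% of all genes (14.3% higher, 15.6% lower). With it, mt-Co1 rose and mt-Nd2 and mt-Atp8 fell, beside 26.2% (12.5% higher, 13.8% lower). mt-Nd2 was at 2940.4, 2638 and 2292 CPM in Txnip-KO and 2899.7, 2699 and 2874 CPM in WT without the filter, and these overlapped. The calls of mt-Co2 and mt-Nd1 without the filter were each lost in 2 of 6 fits with 1 library left out. With the filter mt-Nd2 was at 1900.1, 1835 and 1665 CPM in Txnip-KO and 2319.7, 2213 and 2272 CPM in WT, which stood apart (log2 -0.33, edgeR adjusted p = 0.00193).

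In monocyte-gated cells 1 gene rose and 6 fell without the filter, beside 14.7% of all genes (6.71% higher, 7.97% lower). With it 1 rose and 2 fell, beside 14% (6.28% higher, 7.72% lower). The calls lost were those of mt-Atp6, mt-Nd4, mt-Nd5 and mt-Cytb. mt-Cytb had a log2 fold change of -0.44 without the filter and -0.22 with it. mt-Co1 went the other way, at 0.35 without and 0.52 with. Without the filter, with 1 library left out, the calls of mt-Nd4 and mt-Nd5 in this gate were lost in 4 of 6 fits each and those of mt-Atp6 and mt-Co1 in 3 each. Over all types 41 of the 52 calls were kept with the filter and 3 were added, which gives 44 of 119 beside 21% of all pairs.

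In the other types the filter changed at most 1 call. With it, NK-gated cells kept 1 rise and 6 falls beside 28.2% of all genes (13.4% higher, 14.7% lower), stem cell-gated cells 1 and 4 beside 16.1% (7.7% higher, 8.42% lower), Flt3 Dntt progenitor-gated cells 2 and 4 beside 44.8% (21.7% higher, 23.1% lower) and megakaryocyte-gated cells 3 and 2 beside 11.1% (5.25% higher, 5.85% lower). Erythroid-gated cells had 5 rises and 1 fall beside 28.1% (13.5% higher, 14.6% lower), B lineage-gated cells 2 and 1 beside 13% (5.72% higher, 7.3% lower), and basophil or mast-gated cells 1 rise beside 11.1% (5.31% higher, 5.83% lower). Plasmacytoid dendritic-gated cells had 4 rises beside 19.3% (9.59% higher, 9.66% lower), innate lymphoid-gated cells 1 rise beside 1.89% (0.844% higher, 1.05% lower), and the neutrophil gate no call beside 4.45% (2.84% higher, 1.61% lower), with 1 of 9 genes at an unadjusted p under 0.05 by edgeR. The uncalled values in the neutrophil gate did shift, with a median log2 fold change of -0.29 with the filter and -0.01 without it. mt-Nd2 there was at -0.58 with the filter and -0.06 without it, and mt-Nd1 at -0.13 with it and 0.28 without it. The filter removed 6, 0 and 4 cells of this gate in Txnip-KO and 1, 0 and 0 in WT, so these shifts rest on few cells.

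These 2 types lost different shares of cells in the 2 groups. Of granulocyte-monocyte progenitor-gated cells, 37.9%, 34.4% and 29.0% were over 10% in Txnip-KO, against 20.4%, 18.1% and 22.3% in WT. Of monocyte-gated cells, 7.74%, 10.2% and 6.03% were over 10% in Txnip-KO, against 15.5%, 17.6% and 22.9% in WT. The shares stood apart in opposite directions. Basophil or mast-gated cells also stood apart, at 12.04%, 10.4% and 10.7% in Txnip-KO and 3.57%, 4.82% and 9.02% in WT. For each of these 3 the exact two-sided permutation p was 0.1, and in the other 9 types the groups overlapped. Over all cells the share was 4.19% ± 0.718 in Txnip-KO and 4.56% ± 0.770 in WT (SD, n = 3 each). How far the unequal loss of cells in these 3 gates sets their values with the filter was not tested.

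The summed share of UMIs from the 10 genes was 4.10%, 3.99% and 3.97% in Txnip-KO, against 3.78%, 3.63% and 3.67% in WT. Every Txnip-KO library was above every WT library, by 0.329 percentage points on average (exact two-sided permutation p = 0.1, the smallest possible). With the filter the difference was 0.330 percentage points. Averaged over cells, so that each cell counts alike, the shares were 4.63%, 4.51% and 4.29% in Txnip-KO and 4.46%, 4.26% and 4.51% in WT. They overlapped, with a difference of 0.0676 percentage points (exact permutation p = 0.5), and of 0.0720 with each cell thinned to 1000 UMIs.

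Over all cells the higher share did not come with more mitochondrial UMIs per cell. The median cell held 316, 306 and 264 UMIs of the 10 genes in Txnip-KO, against 340, 332 and 332 in WT. UMIs of nuclear genes were lower too, with medians of 7519, 7358 and 6503 in Txnip-KO and 8230, 8561 and 8187 in WT. The ratio of group means was 0.882 for the 10 genes and 0.856 for nuclear genes. By type, UMIs of the 10 genes per cell had a higher mean in Txnip-KO in basophil or mast-gated (ratio 1.09) and erythroid-gated cells (1.02). The groups overlapped in both, and the mean was lower in the other types. Whether cell size, capture or sequencing depth moves with these totals was not tested.

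In WT without the filter the share ran from 5.87% ± 0.313 in granulocyte-monocyte progenitor-gated cells down to 2.14% ± 0.486 in neutrophil-gated cells (SD, n = 3 each). Between them, in falling order, came plasmacytoid dendritic (4.84%), monocyte (4.51%), basophil or mast (4.41%), B lineage (4.28%), innate lymphoid (3.998%), stem cell (3.81%), Flt3 Dntt progenitor (3.52%), megakaryocyte (3.08%), NK (3.04%) and erythroid cells (3.04%). Neighbours in this order overlapped, except the first and second, stem cell and Flt3 Dntt progenitor, Flt3 Dntt progenitor and megakaryocyte, and erythroid and neutrophil. The order depended on the filter, which acts on this same share. With cells over 10% left out, the granulocyte-monocyte progenitor gate was at 4.75%, 4.55% and 4.75% in WT. It then overlapped the plasmacytoid dendritic gate, at 4.91%, 4.58% and 4.44%. The monocyte gate then averaged 3.52%. That was below the B lineage (4.06%), basophil or mast (3.96%), stem cell (3.78%) and innate lymphoid (3.58%) gates. Levels between types are given without the filter, as CPM of all UMIs of a type. For 9 of 10 genes the WT level was highest in the granulocyte-monocyte progenitor gate and lowest in the neutrophil gate. mt-Co1 differed, with its highest mean in plasmacytoid dendritic-gated cells (6414 CPM) and its lowest in erythroid-gated cells (2733 CPM).

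The Txnip-KO share was higher with no overlap in 7 of 12 types and lower with no overlap in 0. The largest gap without the filter was in granulocyte-monocyte progenitor-gated cells, at 8.59%, 8.04% and 7.05% in Txnip-KO against 5.97%, 5.52% and 6.12% in WT. With the filter it was 5.53%, 5.57% and 5.12% in Txnip-KO and 4.75%, 4.55% and 4.75% in WT, still apart, a difference of 0.722 percentage points, where without the filter it was 2.02. The filter caps this share in each cell and removed a larger part of the Txnip-KO cells of this gate, so some narrowing is built in. With the filter the largest gap was 1.01 percentage points in plasmacytoid dendritic-gated cells, at 6.06%, 5.42% and 5.48% in Txnip-KO against 4.91%, 4.58% and 4.44% in WT. In granulocyte-monocyte progenitor-gated cells nuclear UMIs per cell had medians of 8294, 6203 and 6225 in Txnip-KO, against 12794, 12361 and 10774 in WT. In Flt3 Dntt progenitor-gated cells the share was 4.07%, 3.92% and 3.97% in Txnip-KO, against 3.53%, 3.51% and 3.51% in WT. NK-gated cells overlapped at 3.11%, 2.95% and 2.95% in Txnip-KO and 3.16%, 3.02% and 2.95% in WT. Averaged over cells, each thinned to 1000 UMIs, the monocyte gate stood apart, lower at 4.77%, 6.01% and 4.13% in Txnip-KO, against 6.6%, 6.17% and 7.57% in WT, where the shares of summed UMIs overlapped. On that measure the B lineage gate also stood apart, higher, while the megakaryocyte gate overlapped at 4.05%, 3.80% and 3.41% in Txnip-KO and 3.59%, 3.85% and 3.102% in WT. No type passed after adjustment over 12 types, where the smallest adjusted permutation p was 0.171.

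**Figure D4:**
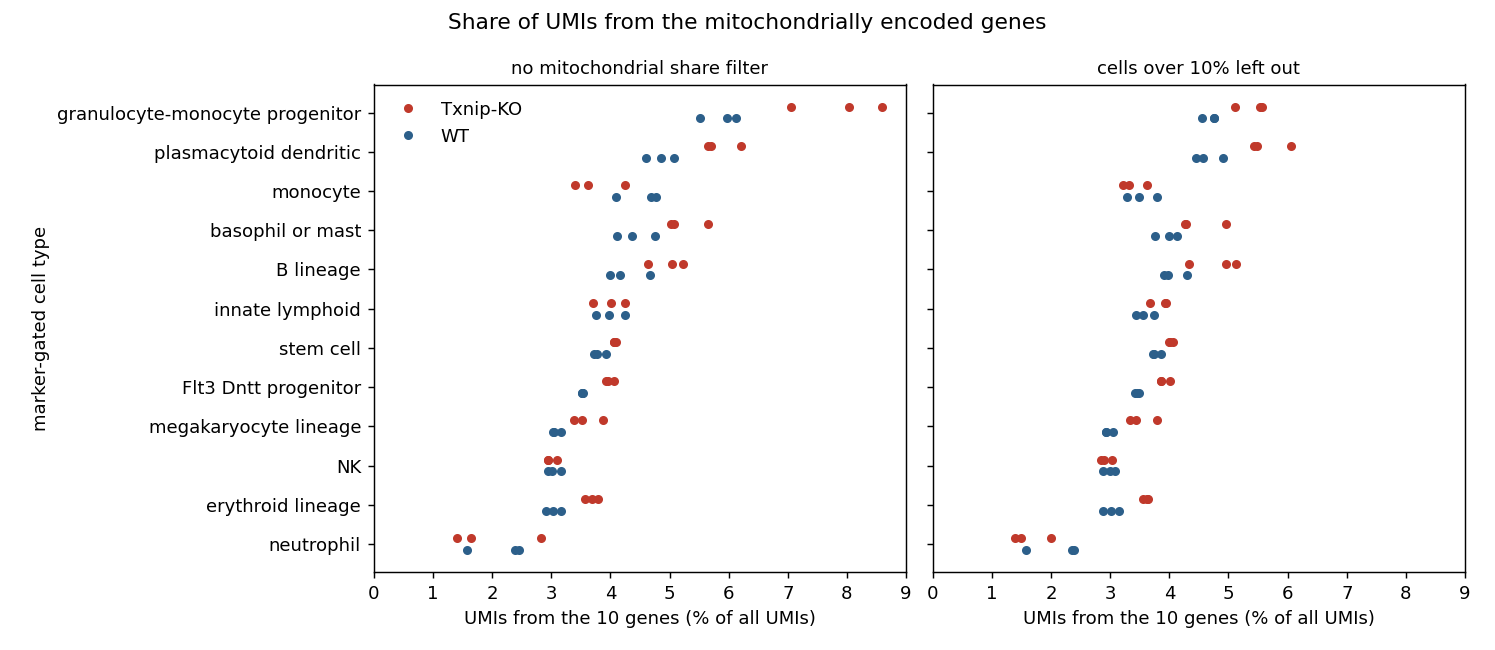
Percent of all UMIs that came from the 10 genes in each cell type, 1 point per library, Txnip-KO in red above WT in blue, without the filter (left) and with cells over 10% left out (right). The granulocyte-monocyte progenitor points lie between 5.52% and 8.59% on the left and between 4.55% and 5.57% on the right.

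The change of each gene ran with its base content. Across the 10 genes, the log2 fold change and the percent of G in the gene had a Pearson r of 0.94 and a Spearman rho of 0.88 (n = 10 genes of 1 genome measured in the same libraries, a description without a test). mt-Co1 has 16.1% G, mt-Nd2 8.0% and mt-Atp8 5.88%. mt-Atp8, at the low end, is the gene whose counts do not measure a transcript of its own. The relation with the percent of A was the reverse, with r = -0.89. For T r was 0.73 and for C -0.76. Base percentages of a gene sum to a fixed total, so these relations are not independent. Gene length (r = 0.33) and position along the genome (r = -0.26) had weaker relations.

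With mt-Nd3 and mt-Nd4l added, the r for G was 0.90 over 12 genes of the plus strand. With mt-Nd6 as well, whose transcript from the other strand is 28.1% G, r was 0.42. By cell type r lay between 0.25 in the neutrophil gate (9 genes) and 0.96 in the erythroid gate, and the next lowest was 0.84 in the basophil or mast gate. The mitochondrially encoded genes of the plus strand have 5.88% to 16.1% G, and nuclear genes 13.2% to 40.5%. These ranges barely meet, so nuclear genes cannot test the relation at the G content of the mitochondrial genes. Within their own range, nuclear genes had an r of -0.09 over 14658 genes. Their median log2 fold change was 0.12 in the fifth of genes with the least G and -0.03 in the fifth with the most.

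**Figure D5:**
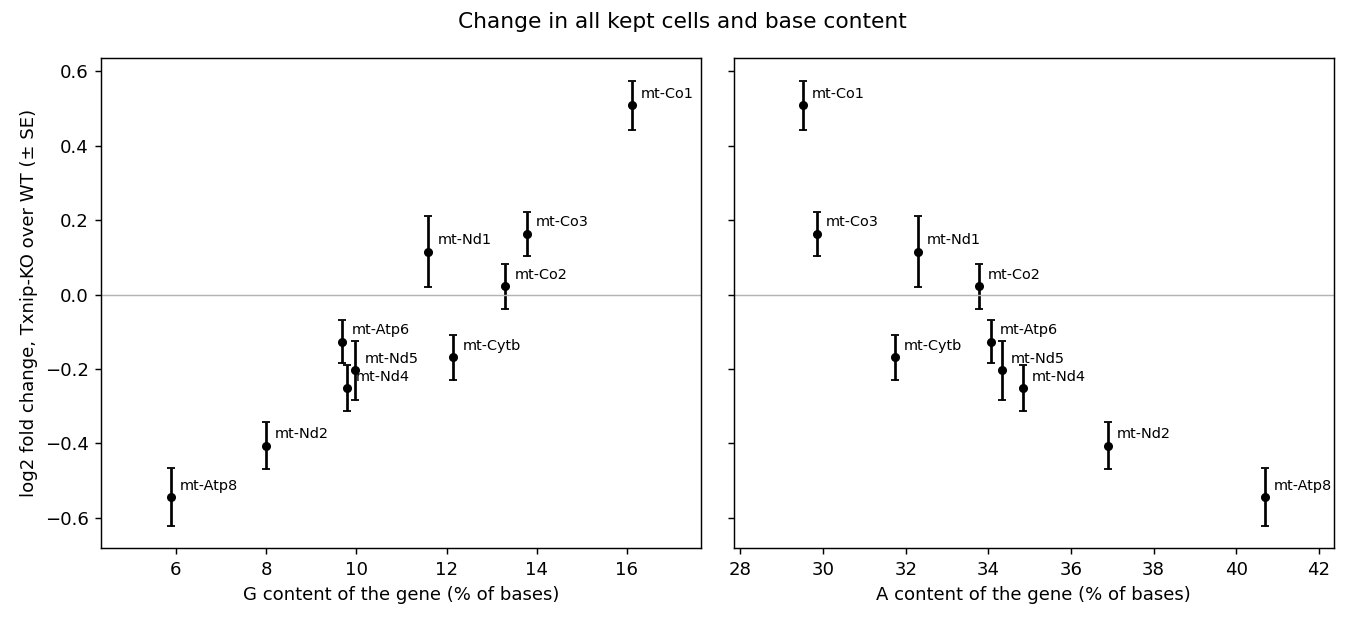
Log2 fold change over all kept cells (Txnip-KO over WT, bars are the SE of the edgeR fit) against the percent of G (left) and of A (right) in each gene. mt-Co1, with 16.1% G, is highest at 0.51 and mt-Atp8, with 5.88% G, lowest at -0.54.

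Nuclear partners of the 10 gene products fell together. Of the nuclear complex I subunits 34 of 36 tested were lower in Txnip-KO over all cells (median log2 fold change -0.45), of complex III 8 of 9 (-0.39), of complex IV 11 of 11 (-0.46) and of complex V 13 of 15 (-0.38), where 19.2% of all genes were called lower. Ndufa9, an accessory complex I subunit, averaged 48.4 ± 3.59 CPM in Txnip-KO and 72.7 ± 2.12 CPM in WT (SD, n = 3 each). Cox7b of complex IV averaged 259.7 ± 27.2 CPM in Txnip-KO and 385 ± 10.3 CPM in WT (SD, n = 3 each), a log2 fold change of -0.57, whereas mt-Co1 of the same complex was at 0.51. Uqcrq of complex III was at -0.51 and Atp5pb of complex V at -0.54.

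In granulocyte-monocyte progenitor-gated cells the nuclear complex IV subunits had a median of -0.62 with 11 of 11 lower (15.6% of all genes called lower), while mt-Co1, mt-Co2 and mt-Co3 rose there without the filter (14.3% of all genes called higher). Of the nuclear complex IV subunits 11 of 11 were also lower in Flt3 Dntt progenitor-gated cells (23.1% of all genes called lower). In NK-gated, plasmacytoid dendritic-gated and stem cell-gated cells 10 of 11 were (14.7%, 9.92% and 8.68%). Fewer were in erythroid-gated (6 of 11, 14.5%), basophil or mast-gated (5, 5.59%), megakaryocyte-gated (2, 6.73%) and monocyte-gated cells (1, 7.97%). These counts did not follow the size of the change alone. The median log2 fold change was -0.33 in stem cell-gated, -0.32 in megakaryocyte-gated, -0.38 in B lineage-gated and -0.26 in erythroid-gated cells. In B lineage-gated and innate lymphoid-gated cells 0 of the 11 subunits were called by edgeR or DESeq2, with 7 and 3 at an unadjusted p under 0.05 by edgeR. Of all genes 7.26% and 0.597% were called lower in these gates by edgeR. In monocyte-gated cells 1 of 36 nuclear complex I subunits rose and 7 fell (median log2 fold change -0.23). Of complex III 1 of 9 rose and 1 fell (-0.19), and of complex V 0 of 15 rose and 3 fell (-0.21). There 6.71% of all genes were called higher and 7.97% lower. In the neutrophil gate the medians of the 4 complexes were 0.05 to 0.17.

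Among 20 genes of mitochondrial transcription and replication, 1 rose and 2 fell, where 21.6% of all genes were called higher and 19.2% lower. Tfam, which packs mitochondrial DNA and is needed to start its transcription, averaged 54.5 ± 1.82 CPM in Txnip-KO and 70.6 ± 0.399 CPM in WT (SD, n = 3 each), a log2 fold change of -0.38 (edgeR adjusted p = 0.00297). Ssbp1, the mitochondrial single-strand DNA-binding protein, fell by 0.21 on the log2 scale. Tk2, the mitochondrial thymidine kinase, rose by 0.44. Polrmt, the mitochondrial RNA polymerase, was named after its value was seen, with 7.98 ± 0.258 CPM in Txnip-KO and 7.82 ± 0.412 CPM in WT (SD, n = 3 each).

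Among 26 genes listed under mitochondrial RNA processing and stability, 10 fell and 0 rose, where 19.2% of all genes were called lower and 21.6% higher. The 10 include Taco1 and Cox14, which act in the synthesis and assembly of complex IV. Slirp, which helps to keep mitochondrial mRNAs stable, averaged 59.5 ± 4.79 CPM in Txnip-KO and 76.6 ± 1.76 CPM in WT (SD, n = 3 each), a log2 fold change of -0.36. Hsd17b10, a part of the enzyme that trims tRNA 5′ ends, was at -0.39, and Fastkd2 and Ptcd2, both RNA-binding proteins of the organelle, at -0.37 and -0.30. The median of the list was -0.15.

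Across the 12 types in WT the 10 genes did not follow each other equally. mt-Atp6 and mt-Nd4 had the highest correlation of mean log2 CPM over types (r = 0.99) and mt-Nd1 and mt-Co1 the lowest (r = 0.22). Outside the mitochondrial genome, the 5 genes most like the sum of the 10 were Pigt, Brd2, Ddost, Pdia6 and Lman2 (r from 0.82 to 0.84 over 12 types, among 2983 genes with a mean of at least 50 CPM). These correlations are descriptions over types of the same libraries.

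The difference in change between types was tested in 1 joint fit, each type against NK cells, which had the most cells. Of 110 pairs 15 were called, where by type 0.371% to 6.93% of all 12127 genes were. In erythroid-gated cells 6 of 10 genes had a more positive change than in NK-gated cells, beside 5.1% of all genes, with differences from 0.48 for mt-Co2 to 0.56 for mt-Cytb on the log2 scale. None of these 6 calls was kept without 1 of the WT libraries: in each of those 3 fits 0 of 10 genes were called by edgeR and 8 had an unadjusted p under 0.05. With the filter 8 of 10 genes were called in erythroid-gated cells, beside 5.04%. In the neutrophil gate 7 of 10 were called, beside 6.93% of all genes, but 0 with the filter, beside 4.28% (2 of 10 with an unadjusted p under 0.05), and 0 without Txnip-KO replicate 3 (1 with an unadjusted p under 0.05).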

How the data were processed

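Per the submitters' processing notes, Cell Ranger 6.1.1, CASAVA 1.8 and Seurat 2.3.4 were used. The authors deposited raw UMI counts per gene and barcode for each library. No source used here names the genome build, and 31107 of 31253 feature identifiers were found in GENCODE M21 (GRCm38), which gave the positions and sequences. The genes, lists and markers were chosen with earlier results of these data known.

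Libraries held 61368478 to 80688688 UMIs in Txnip-KO and 72152212 to 80876483 in WT. Of 48277 barcodes, those with at least 500 genes and 1000 UMIs passed, and Scrublet's highest-scoring share in each library (0.8% per 1000 barcodes, 2896 in all, 6.24%) was removed. No filter on mitochondrial share was applied in the main values, and the alternative left out cells over 10%. Counts were summed per library over all cells and per gated type, and tested with edgeR 4.0.16 in R 4.3.3 (filterByExpr, TMM, quasi-likelihood test, Benjamini-Hochberg at 0.05 over all genes of a fit). CPM are TMM-scaled, except that of Txnip and the WT levels compared between types, which are per total UMIs. Differences between types came from an interaction fit with the library as a block. Shares were compared by exact permutation. DESeq2 1.42.0, other scalings, no low-count filter, no doublet removal, a gate of 4 markers, equal cell numbers, means over cells, thinning, a replicate block and leaving out each library were alternatives. Copies were sought with blastn 2.17.0. On simulated data the fit recovered 96% of 200 genes changed by 1 on the log2 scale over all cells, 84% in stem cell-gated cells and 71% in the interaction. The genes named from each list are among the 4 with the smallest p in it, except Polrmt, Taco1 and Cox14.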

Additional observations from a re-analysis of the deposited data

Results flagged for a closer look

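The change in Txnip-KO differed from that in NK-gated cells for 15 pairs of a gene and a type (edgeR interaction test, adjusted p under 0.05). The values below are differences of log2 fold changes, each type minus NK. In erythroid-gated cells the difference was 0.51 for mt-Nd1, 0.49 for mt-Co1, 0.48 for mt-Co2, 0.51 for mt-Atp6, 0.55 for mt-Co3 and 0.56 for mt-Cytb. mt-Co1 differed by 0.52 in megakaryocyte-gated cells and mt-Nd5 by 0.48 in basophil or mast-gated cells. Without WT replicate 1, 2 or 3, edgeR called 0 of 10 genes in the megakaryocyte gate, with 5, 4 and 4 at an unadjusted p under 0.05. In the basophil or mast gate it called 0 of 10 without WT replicate 3 or Txnip-KO replicate 1, with 3 and 2 at an unadjusted p under 0.05.

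In the neutrophil gate the difference was 0.87 for mt-Nd1, 0.92 for mt-Nd2, 0.52 for mt-Co2, 0.69 for mt-Atp6, 0.73 for mt-Nd4, 0.84 for mt-Nd5 and 0.81 for mt-Cytb. The joint fit scales all types together and the separate fits do not. Each of these 7 differences was larger than the gap between the separate fits. For mt-Nd1 the separate log2 fold changes were 0.28 in the neutrophil gate and -0.11 in NK-gated cells, and for mt-Nd4 -0.12 and -0.37. mt-Co1 was not called. Its joint difference was 0.22, while its separate values were 0.07 in the neutrophil gate and 0.27 in NK-gated cells. How far the joint scaling sets these differences was not tested. Txnip-KO replicate 3 was the highest library of its group for all 9 genes tested in the neutrophil gate, with 6985 CPM of mt-Co1, where replicates 1 and 2 had 4898 and 4439.7 CPM.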

How the results depend on the processing

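Over all cells 5988 genes were called, 2642 after thinning to 1000 UMIs and 3513 to 6113 when 1 library was left out, with 3513 without WT replicate 2 and 3640 without WT replicate 3. Of the 10 genes 4 were called, 7 by DESeq2's Wald test (40.7% of all genes), 7 over every deposited barcode (40.6%), and 3 to 6 with 1 library left out. By type the 52 calls became 32 to 45 with 1 library left out. As calls over all genes fell in most such fits over all cells, a lost call is not by itself a trait of these genes. The share of all genes called with 1 library left out is not given by type or for the interaction. The 15 calls of the interaction became 0 to 26 with 1 library left out, at 3 without WT replicate 1, 5 without WT replicate 2, 0 without WT replicate 3 (35 of 110 with an unadjusted p under 0.05, edgeR) and 26 without Txnip-KO replicate 2. The share difference was 0.237 to 0.407 percentage points with the filter at 10%, no doublet removal, equal cells, every deposited barcode, the median over cells or 1 library left out, but 0.0676 as a mean over cells and 0.0720 with each cell thinned to 1000 UMIs, both with overlapping groups.

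mt-Co2 in all kept cells, at 0.02 and not called, turned sign with DESeq2 size factors (-0.0034), DESeq2's Wald test (-0.0034), every deposited barcode (-0.043), no doublet removal (-0.0085), no filter on low counts (-0.023), thinning (-0.038), and without Txnip-KO replicates 2 (-0.015) or 3 (-0.0014) or WT replicate 2 (-0.0020); with 1 library left out it lay between -0.015 and 0.033. The cause was not tested. The libraries share only replicate numbers: deviations of same-numbered libraries correlated at 0.095, 0.118 and 0.073, and each library correlated best with its own number. With the replicate block 6478 genes, 6 of the 10 genes (mt-Cytb and mt-Nd5 added, beside 43.1% of all genes) and 54 pairs by type were called, mt-Co1 in innate lymphoid gated cells was not (edgeR adjusted p = 0.0526), and mt-Co2 was at -0.0047. Means over cells of the share, every deposited barcode for the calls over all cells, the interaction with libraries left out, and equal cells and thinning for the count over all genes were chosen after seeing the data. The neutrophil gate held 25 to 269 cells per library, where the SE of the log2 fold changes was 0.22 to 0.35.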
